A study of Mus musculus with 2 samples.

Results

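The motile cilium axoneme genes described here were the 69 genes, of 55487 in the deposited table, whose symbols consist of Dnah, Dnai, Dnaaf, Cfap, Rsph, Tekt or Drc followed by a number. They comprised 33 Cfap, 15 Dnah, 8 Rsph, 5 Tekt, 5 Dnaaf and 3 Drc genes. No symbol began with Dnai, since the annotation names the intermediate chains Dnaic1 and Dnaic2. The genes were chosen by name and not by their values. They were measured in medullary thymic epithelial cells (mTECs) of wild-type C57BL/6J female mice (B6 WT), injected into the peritoneum at an age of 4 weeks, on 7 days in a row, with spermidine at 15 mg/kg in PBS or with PBS alone. The sort took mTEChi and post-Aire mTEClo. Each condition had 2 samples, PBS 1 (hashtag HT4), PBS 2 (HT5), spermidine 1 (HT2) and spermidine 2 (HT3), marked with hashtag antibodies and pooled in 1 droplet run. Whether each sample was a separate mouse is not stated, and the p-values below reflect the spread among the 4 samples alone, which may be technical.

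A motile cilium beats because axonemal dyneins slide its outer doublet microtubules past each other. Dnah genes encode the dynein heavy chains, and Dnaaf genes encode factors that assemble the arms in the cytoplasm. Rsph genes encode radial spoke proteins, Drc genes the nexin-dynein regulatory complex, Tekt genes tektin filaments inside the doublets, and Cfap genes a mixed set of cilia and flagella associated proteins. In multiciliated cells these genes are switched on together under FOXJ1 and RFX factors. In the thymus, mTECs present antigens of other organs to developing T cells. AIRE drives scattered expression of tissue genes in Aire-expressing mTECs, and mimetic mTECs take on the programs of other cell types, among them ciliated cells and tuft cells, which are chemosensory.

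Promoter sequences, taken from RefSeq (GRCm38.p6), were matched by symbol for 57 of the 69 genes, with 64 promoters in all. The 250 bases before the transcription start are shown for 4 of them because these genes stood for the different patterns of expression described below. Cfap298 and Cfap44 were high in ciliated-like cells, Dnah5 was high in tuft-like and ciliated-like cells, and Dnah14 was highest in Aire-stage cells. They lie at chr16:90934850-90935099 (Cfap298, minus strand), chr16:44394549-44394798 (Cfap44, plus strand), chr15:28203516-28203765 (Dnah5, plus strand) and chr1:181576343-181576592 (Dnah14, plus strand). Capitals mark GTTGCC, the shared core of the X-box bound by RFX factors, TGAGTCA, the core of the element bound by NFE2 and small MAF proteins, and GTAAACA, a forkhead core, each on either strand.
Cfap298: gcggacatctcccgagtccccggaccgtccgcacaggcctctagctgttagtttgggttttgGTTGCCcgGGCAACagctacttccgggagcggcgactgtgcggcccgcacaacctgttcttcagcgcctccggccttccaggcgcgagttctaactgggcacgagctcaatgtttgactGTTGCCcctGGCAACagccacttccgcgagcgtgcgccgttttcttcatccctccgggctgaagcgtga
Cfap44: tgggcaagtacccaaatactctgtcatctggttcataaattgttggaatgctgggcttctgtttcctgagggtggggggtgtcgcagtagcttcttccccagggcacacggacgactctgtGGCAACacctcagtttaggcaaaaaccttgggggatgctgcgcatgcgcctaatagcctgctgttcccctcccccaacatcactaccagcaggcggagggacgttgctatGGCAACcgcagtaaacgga
Dnah5: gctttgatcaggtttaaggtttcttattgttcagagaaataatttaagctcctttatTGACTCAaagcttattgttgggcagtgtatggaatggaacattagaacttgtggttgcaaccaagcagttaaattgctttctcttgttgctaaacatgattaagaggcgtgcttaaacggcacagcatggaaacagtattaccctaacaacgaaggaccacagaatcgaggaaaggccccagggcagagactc
Dnah14: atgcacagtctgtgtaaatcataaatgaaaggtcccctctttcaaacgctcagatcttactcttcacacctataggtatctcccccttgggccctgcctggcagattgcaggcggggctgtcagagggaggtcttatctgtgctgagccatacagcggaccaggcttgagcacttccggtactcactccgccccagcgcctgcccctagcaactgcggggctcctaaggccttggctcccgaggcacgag
The Cfap298 window held GTTGCC at 4 places and the Cfap44 window at 2. The Dnah5 window held TGAGTCA, and the Dnah14 window held none of the marked letters. These 4 are examples and do not stand for all the promoters, since 40 of the 57 matched genes lacked GTTGCC. Over both strands, GTTGCC occurred in 19 of the 64 promoters (29.7%) and in 3425 of 32851 promoters of the whole RefSeq table (10.4%). The longer X-box form GTTGCCATG, which contains GTTGCC, occurred in 3 of 64 (4.69%) and in 0.642% of all promoters. GTAAACA occurred in 4 of 64 (6.25%, against 3.17% of all) and TGAGTCA in 3 of 64 (4.69%, against 4.46% of all). Alternating repeats that can take the Z form, CA repeated 6 times and CG repeated 4 times, occurred in 0 of the 64, against 0.883% and 1.97% of all promoters. The median GC content was 54.2% in the 64 promoters and 52.4% in all of them. The 17 genes with GTTGCC had a median level of 194 CPM (UMIs of the gene per 1000000 UMIs of a class) in ciliated-like cells, and the 40 without it had 152. Their ranges, 21.2 to 723 CPM with it and 0.707 to 647 CPM without it, overlapped widely. These matches are descriptions of the letters and were not tested.

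The 4 samples gave 784 to 1099 assigned cells each (3739 in all), 13316095 to 19893017 UMIs per sample and a median of 14549 to 16812 UMIs per cell. Cells were clustered without the 69 genes, so that no class was formed on them, though the classes rest on the other genes of the same cells. The ciliated-like class had 43 cells (18, 7, 12 and 6 in PBS 1, PBS 2, spermidine 1 and spermidine 2). All 20 ciliated markers outside the symbol rule were more than 2-fold up in its cluster, and 42 of the 43 cells had a UMI of Foxj1. Of the 43, 27 also had a UMI of Aire, which stood at 79.9 CPM in the class against 792 CPM in Aire-stage cells. The Aire-stage class, the clusters with Aire above 200 CPM that no marker list named, had 1213 cells (231, 238, 435 and 309), with Foxj1 at 12.5 CPM. The transit-amplifying clusters 6 and 13, with 209 and 80 cells, had Aire at 546 and 703 CPM and were not part of it. The tuft-like class had 991 cells (377, 221, 232 and 161), with Pou2f3, the master regulator of tuft cells, at 532 CPM and Foxj1 at 1.44 CPM. The median depth was 32457 UMIs per cell in ciliated-like, 21033 in Aire-stage and 11619 in tuft-like cells, so numbers of genes per cell are compared after thinning. Levels are CPM of the summed UMIs of a class. They are not scaled by gene length, on the assumption that each 3′ tag stands for 1 transcript end. That assumption was not tested, which limits comparisons of level between genes of different length.

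Ciliated-like cells held most of the program, with UMIs of a median of 53 of the 69 genes per cell (range 14 to 64). Each of the 69 genes had a UMI in this class, with a median level of 162 CPM. In this class 63 genes exceeded 10 CPM, 42 exceeded 100 CPM, and 56 were seen in at least 50% of its 43 cells. The level was spread over many genes, since the first accounted for 6.40% of the program's UMIs and the first 8 for 34.7%. Within families the median ran from 55.9 CPM for the Dnaaf assembly factors and 71.1 CPM for the Rsph genes to 194 CPM for the Dnah heavy chains and 222 CPM for the Drc genes. The program took 140 and 148 UMIs per 10000 with PBS and 131 and 104 with spermidine (130.8 ± 19.2, SD, n = 4). Even so, the 43 ciliated-like cells supplied 30.2% of all 62443 program UMIs in the assigned cells, while Aire-stage cells supplied 32.1% and tuft-like cells 18.2%.

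**Figure D1:**
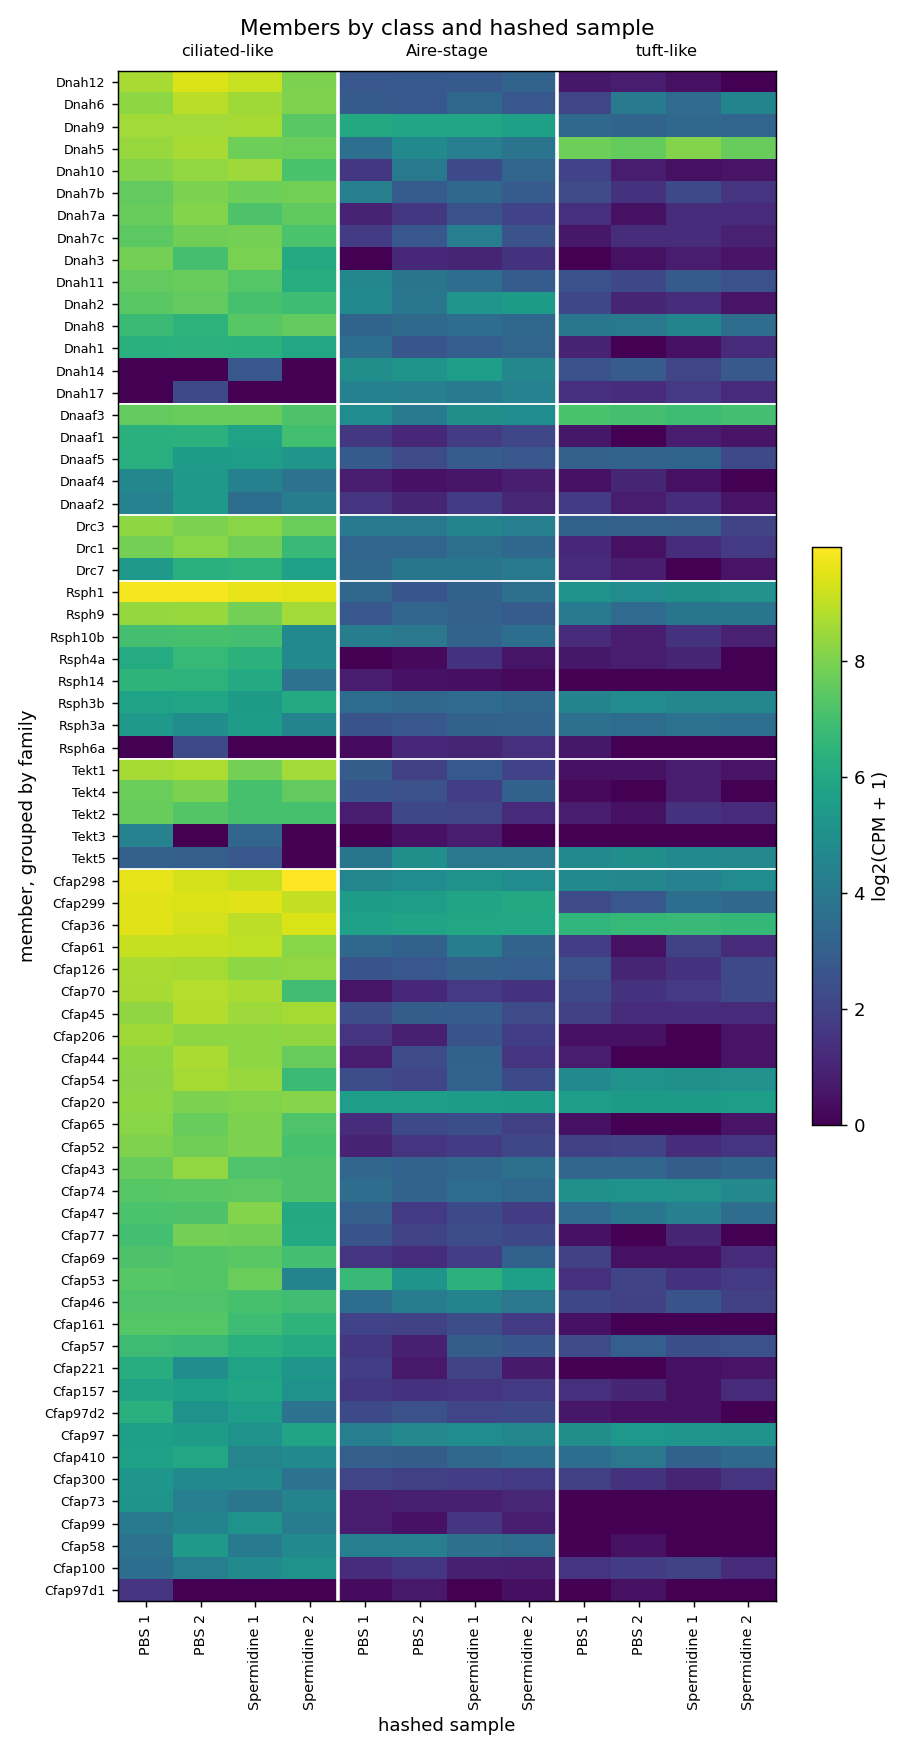
Levels of the 69 genes as log2(CPM + 1), in rows grouped by family, in the 4 hashed samples of the ciliated-like, Aire-stage and tuft-like classes, in columns. Nearly every row is bright in the ciliated-like columns (median 162 CPM), and only scattered rows are in the Aire-stage (median 6.50 CPM) and tuft-like columns (median 1.90 CPM).

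The 8 highest genes of ciliated-like cells were Rsph1, Cfap298, Cfap299, Cfap36, Cfap61, Dnah12, Cfap126 and Cfap70, from 854 down to 369 CPM. Rsph1, a radial spoke head protein, stood at 913 and 906 CPM with PBS and at 786 and 760 CPM with spermidine, and was present in 93.0% of cells. Its 4 values were close together, with both PBS samples above both spermidine samples. Cfap298, which takes part in dynein arm assembly, stood at 770, 633, 543 and 997 CPM and was the only one of the 8 present in 100% of cells. Its groups overlapped, the highest and lowest values both being spermidine samples. Dnah12, an inner arm heavy chain, stood at 400, 698, 565 and 255 CPM, also with overlap. Among the genes best known from human primary ciliary dyskinesia, Drc1 of the nexin-dynein regulatory complex stood at 222 CPM, Dnah11, an outer arm heavy chain, at 165 CPM, Dnaaf1, an assembly factor, at 80.6 CPM and Rsph4a, a radial spoke head protein, at 72.1 CPM. The tektin Tekt1 stood at 398, 428, 235 and 378 CPM and Tekt2 at 163 CPM over the class. Cfap43 and Cfap44, whose loss gives sperm flagella defects, stood at 201 and 309 CPM.

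The class was not uniform at the level of single cells. Of the 43 cells, 35 had UMIs of at least 40 of the genes and 5 had fewer than 30. Of those 5, 3 came from spermidine 1, and 2 came from PBS 1. The lowest, from spermidine 1, had 14 of the genes among 20459 UMIs, 7 of the 20 ciliated markers, 11 UMIs of Foxj1 and 26 of Aire. In spermidine 1 the class also had the highest Aire level, 199 CPM against 35.0, 46.7 and 42.4 CPM in PBS 1, PBS 2 and spermidine 2.

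Aire-stage and tuft-like cells had few of the axoneme genes each, against many in a ciliated-like cell. After thinning to 5000 UMIs, a ciliated-like cell had 31.2, 30.4, 25.1 and 25.2 of the 69 genes on average in PBS 1, PBS 2, spermidine 1 and spermidine 2 (28.0 ± 3.31, SD, n = 4). An Aire-stage cell had 2.66, 2.44, 2.84 and 2.76 (2.67 ± 0.176). A tuft-like cell had 2.85, 2.77, 2.89 and 2.76 (2.82 ± 0.0623). Ciliated-like values thus lay far above those of both other classes in every sample, while the ranges of Aire-stage and tuft-like cells overlapped. Thinning left out 1 ciliated-like, 108 Aire-stage and 96 tuft-like cells below that depth. Without thinning, the means over all cells were 48.7, 7.19 and 5.50. At 5000 UMIs, 8.14% of Aire-stage and 4.25% of tuft-like cells had none of the genes, while 5 Aire-stage cells (0.452%), 0 tuft-like cells and 39 ciliated-like cells (92.9%) had 10 or more. Myeloid-like cells left in the sort, which should lack axonemal transcripts, had 0.88 of the genes per cell at the same depth (50 cells). Thymocyte-like cells, also left in the sort, had more program UMIs, 2.85 per 10000 against 1.68 in myeloid-like cells.

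**Figure D2:**
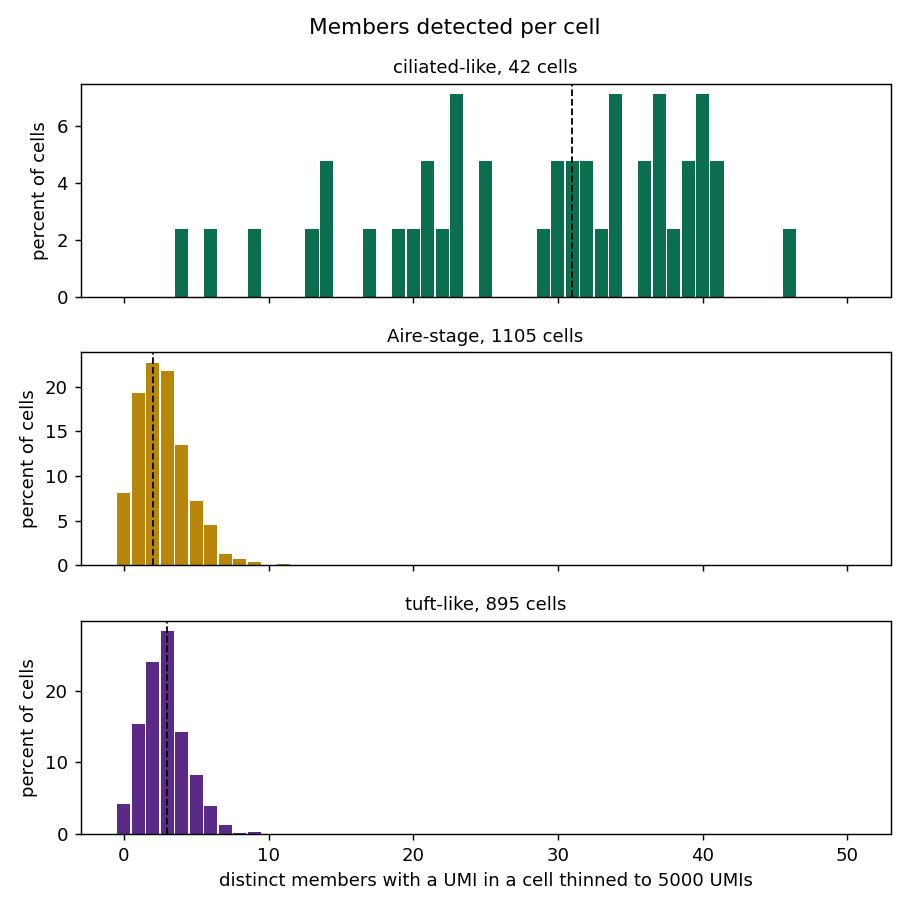
Percent of cells (y axis) by the number of the 69 genes with a UMI after thinning to 5000 UMIs (x axis), for 42 ciliated-like, 1105 Aire-stage and 895 tuft-like cells, with a dashed line at the median. Ciliated-like cells spread from 4 to 46 genes around a median of 31, and the medians of Aire-stage and tuft-like cells are 2 and 3.

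A contrast in the same direction was seen when the number of program UMIs was fixed, in cells chosen by that number. Of cells with at least 10 such UMIs (43 ciliated-like, 741 Aire-stage and 460 tuft-like), 10 UMIs drawn from a cell were expected to name 8.49, 8.61, 8.24 and 8.35 different genes in ciliated-like cells of the 4 samples. The expected number was 6.06, 6.31, 6.16 and 6.29 in Aire-stage cells and 5.66, 5.54, 5.34 and 5.68 in tuft-like cells. The ranges of the 3 classes did not overlap. In the same cells, but without fixing that number, the leading gene took a median of 10.0% of a cell's program UMIs in ciliated-like cells. It took 30% in Aire-stage and 35.7% in tuft-like cells. Ciliated-like cells had more program UMIs each, so these medians cannot separate the number of UMIs from the spread over genes. Outside the ciliated-like cluster, 25 assigned cells had UMIs of at least 20 of the genes, 10 of them Aire-stage and 1 tuft-like, and 17 of the 25 had Foxj1. Of the 25, 12 came from spermidine 1, and whether they were doublets was not tested.

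**Figure D3:**
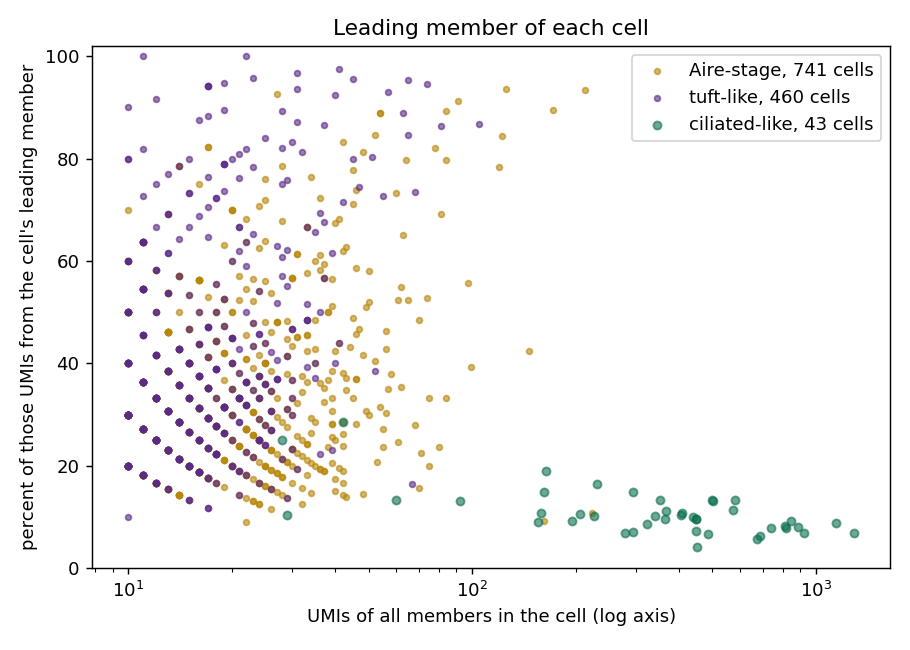
For each cell with at least 10 UMIs of the 69 genes, the percent of those UMIs from the cell's leading gene (y axis) against their number (x axis, log scale), colored by class. The 43 ciliated-like cells lie low on the y axis (median 10.0%) at high totals, whereas the 741 Aire-stage and 460 tuft-like cells spread upward (medians 30% and 35.7%). The percents were not taken at a fixed total.

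In Aire-stage cells all 69 genes had a UMI somewhere in the class, but at a median of 6.50 CPM, with 20 above 10 CPM, 0 above 100 CPM and only Cfap36 and Cfap20 in at least 50% of cells. Ciliated-like cells exceeded them more than 10-fold for 49 of the 69 genes. The 8 highest were Cfap53, Cfap36, Dnah9, Cfap299, Cfap20, Dnah14, Dnah2 and Cfap298, from 69.2 down to 28.8 CPM. Cfap53, needed for left-right patterning by nodal cilia, stood at 107, 35.1, 83.0 and 48.8 CPM in PBS 1, PBS 2, spermidine 1 and spermidine 2, with overlap of the groups. It was present in 18.5% of Aire-stage cells, and a single PBS 1 cell held 199 of its 1735 UMIs (11.5%). The 10 cells richest in Cfap53 held 56.7% of its UMIs. Dnah9, an outer arm heavy chain, stood at 65.2, 58.9, 57.1 and 49.6 CPM and was present in 31.4% of cells. Both PBS samples were above both spermidine samples, but the gap between the groups was narrower than the spread inside each. Dnah2, an inner arm heavy chain, stood at 26.5, 14, 35.4 and 42.4 CPM in 22.0% of cells, with both spermidine samples higher. Cfap36 and Cfap20, at 58.4 and 44.6 CPM, were also among the 8 highest genes of tuft-like cells.

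Only 4 genes were higher in Aire-stage than in ciliated-like cells, namely Dnah14, Dnah17, Tekt5 and Rsph6a. Dnah14, a dynein heavy chain, stood at 29.3, 34.7, 46.4 and 23.3 CPM in Aire-stage cells, while in ciliated-like cells it had UMIs in spermidine 1 only (5.60 CPM). Dnah17, the outer arm heavy chain of the sperm flagellum, stood at 19.6, 19.5, 16.5 and 20.1 CPM in Aire-stage cells and had UMIs only in PBS 2 among the ciliated-like samples (3.60 CPM). Both thus stayed near 0 in the class that held the rest of the program. Tekt5, a tektin of sperm, stood at 13.6, 30.6, 14.3 and 14.9 CPM in Aire-stage, 26.0, 29.9, 26.0 and 24.5 CPM in tuft-like and 7.36, 7.19, 5.60 and 0 CPM in ciliated-like cells. By Aire-stage cluster, as described below, it stood at 37.6, 4.09 and 3.59 CPM in clusters 0, 3 and 5. Only cluster 0 thus exceeded the ciliated-like mean of 5.04 CPM. Rsph6a, a testis radial spoke gene, was below 2 CPM in both classes when summed over samples, which gives its order no weight. Dnah14 overlaps Lbr on the other strand, and, since the sources used here do not give the counting's use of strand, their reads may not be separable.

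The level of single genes also differed among the 3 Aire-stage clusters, which had Aire at 446, 976 and 1093 CPM (592, 369 and 252 cells, clusters 0, 3 and 5). Dnah14 stood at 5.65, 77.0 and 26.7 CPM in these, and Dnah5 at 4.95, 39.2 and 7.64 CPM, so both were highest in cluster 3. Cfap53 stood at 120, 49.3 and 15.1 CPM and Dnah9 at 76.4, 67.5 and 12.5 CPM, both highest in cluster 0 by level. By share of cells both were highest in cluster 3. Cfap53 was present in 15.5%, 24.4% and 17.1% and Dnah9 in 32.6%, 38.8% and 17.9% of cells. These shares were not thinned, and the median depth was 17475, 23811 and 25610.5 UMIs. The 69 genes together took 10.0, 9.78, 10.9 and 9.74 UMIs per 10000 in cluster 3, above 7.81, 6.31, 8.53 and 6.91 in cluster 0 and 5.03, 5.34, 6.37 and 5.84 in cluster 5. The 3 clusters kept this order in each of the 4 samples.

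In tuft-like cells the program's UMIs were concentrated in 2 genes, Dnah5 and Dnaaf3. Both exceeded 100 CPM, and Dnah5 alone supplied 25.6% of the UMIs of the 69 genes. The first 8 genes supplied 71.3%, the class median was 1.90 CPM, and 4 of the genes had no UMI. Dnah5, the outer arm heavy chain mutated in many cases of primary ciliary dyskinesia, stood at 215, 193, 278 and 199 CPM in tuft-like cells and at 11.5, 25.7, 18.3 and 13.3 CPM in Aire-stage cells. The ranges of these classes did not overlap, and the ciliated-like values of 339, 406, 218 and 208 CPM overlapped those of tuft-like cells. Dnah5 was present in 407 of 991 tuft-like cells (41.1%), of which 117 had 1 UMI and 86 had 10 or more, up to 91 in a cell. Dnaaf3, a dynein assembly factor, stood at 136, 128, 111 and 127 CPM in tuft-like, 27.4, 15.6, 29.0 and 27.8 CPM in Aire-stage and 188, 201, 199 and 144 CPM in ciliated-like cells. It was present in 57.0% of tuft-like cells. The 3 classes did not overlap. Dnaaf3 overlaps Tnni3 on the same strand, so some of its reads could belong to that gene. The other 6 of the 8 highest were Cfap36 (97.9 CPM), Cfap20 (43.9), Cfap97 (33.9), Rsph1 (30.9), Cfap74 (30.5) and Cfap54 (29.9).

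Dnah5 was also unequal among the tuft-like clusters. It stood at 416 CPM in cluster 1 (508 cells, in which Nrgn and Dclk1 were among the leading genes), against 70.6 CPM in cluster 2 (380 cells) and 57.4 CPM in cluster 11 (103 cells). In cluster 1 it stood at 399, 313, 583 and 399 CPM over the 4 samples and was present in 59.3% of cells, against 23.7% and 15.5% of cells in clusters 2 and 11. Dnaaf3 was more even, at 138, 103 and 172 CPM, and Rsph1 stood at 21.7, 37.5 and 39.9 CPM.

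Free RNA in droplets can give UMIs to cells that do not express a gene, so shares of cells were set beside those of myeloid-like cells. At 5000 UMIs per cell, Dnah5 was present in 29.9% of tuft-like, 4.07% of Aire-stage and 0 of 50 myeloid-like cells, which allows a share of up to 6%. Dnaaf3 was present in 37.2%, 10.8% and 6% of these. Dnah9 was present in 15.8% of Aire-stage, 3.35% of tuft-like and 0% of myeloid-like cells, and Cfap53 in 9.32%, 0.894% and 0%. Cfap36 and Cfap20 reached 16% and 14% of myeloid-like cells, so these were also seen widely outside the epithelial classes. In all, 13 of the 69 genes exceeded 6% of Aire-stage cells and 12 exceeded 6% of tuft-like cells at this depth. Shares below that cannot be told from background with these 50 cells. The 6% limit holds only for the 53 of the 69 genes that had no UMI in the myeloid-like cells. Both counts include Cfap36, Cfap20 and Dnaaf3, which were seen there, so they are not numbers of genes above background. The median depth before thinning was 16326.5 UMIs in myeloid-like cells.

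**Figure D4:**
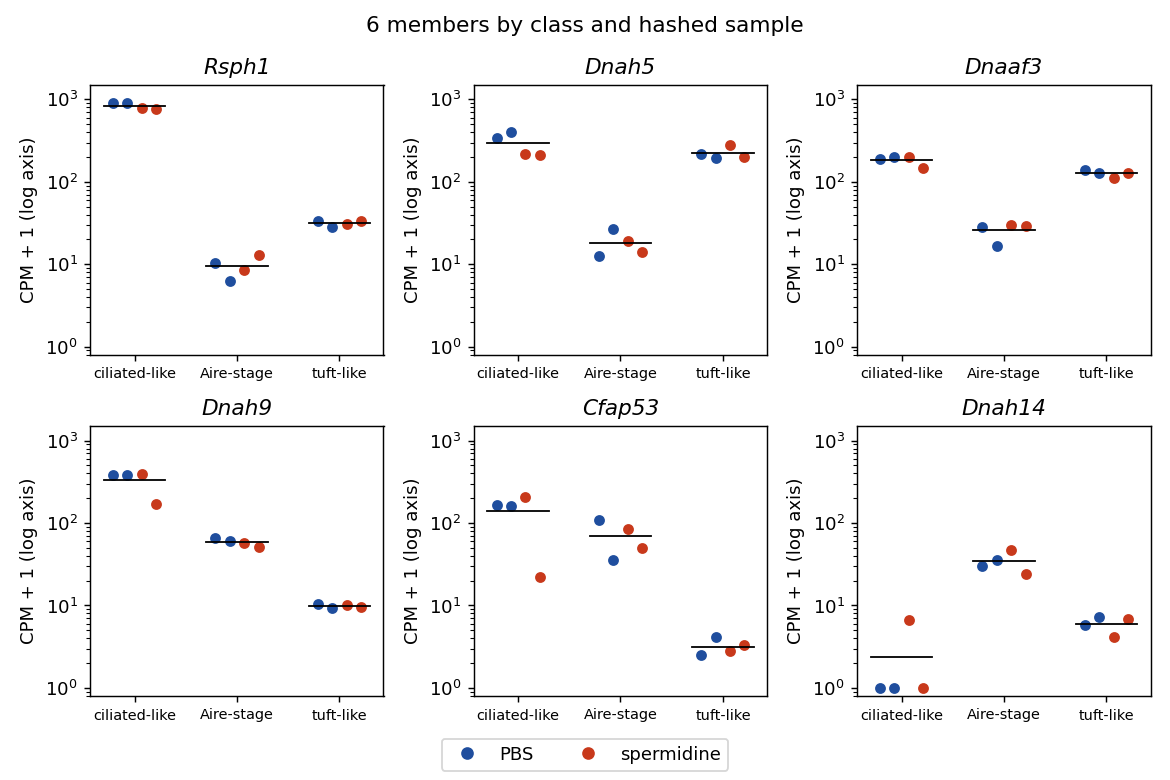
CPM + 1 on a log axis of Rsph1, Dnah5, Dnaaf3, Dnah9, Cfap53 and Dnah14 in ciliated-like, Aire-stage and tuft-like cells, with 1 point for each hashed sample (blue PBS, red spermidine) and a line at the mean of 4. Dnah5 is high in tuft-like and ciliated-like cells, Dnah9 and Cfap53 in Aire-stage and ciliated-like cells, and Dnah14 is highest in Aire-stage cells (23.3 to 46.4 CPM).

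Tuft-like and Aire-stage cells of the same samples were compared with edgeR's quasi-likelihood test, with the hashed sample as a block. These 2 classes differed in most of the transcriptome, with 73.7% of 16083 genes past an adjusted p of 0.05, 34.5% higher and 39.1% lower in tuft-like cells. Of the 69 genes, 48 passed the low-count filter and 39 of these were called, 13 higher and 26 lower in tuft-like cells. That share of 81.25% is close to the background. Their median log2 fold change was -1.49, against -0.05 over all genes tested. The 5 genes with the largest values were Dnah5, Cfap54, Dnaaf3, Rsph1 and Cfap47. Dnah5 rose by 3.70 ± 0.20 (log2 fold change ± SE; adjusted p = 4.9e-07, edgeR quasi-likelihood with Benjamini-Hochberg adjustment), and was higher in tuft-like cells of 4 of 4 samples. Cfap54, a central apparatus protein, rose by 2.68 ± 0.23, from 4.15, 3.28, 7.82 and 3.68 CPM in Aire-stage to 26.6, 33.1, 31.0 and 32.2 CPM in tuft-like cells. Dnaaf3 rose by 2.33 ± 0.15, Rsph1 by 1.85 ± 0.17 and Cfap47, a central apparatus protein encoded on the X chromosome, by 1.85 ± 0.36.

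Genes lower in tuft-like cells included several at almost no UMIs there. Cfap58, a sperm flagellum protein, had 348 UMIs in Aire-stage cells and 1 in tuft-like cells, a ratio of CPM of 183 (95% counting interval 32.6 to 7234). Tekt4 had 116 and 3 UMIs (ratio 20.3, 6.77 to 99.8) and Cfap161, a protein inside the doublets, had 80 and 2 (ratio 21.0, 5.62 to 176). Cfap53 fell by 5.09 ± 0.31 on the log2 scale and Drc7, of the nexin-dynein regulatory complex, by 4.06 ± 0.48. The heavy chains split by direction. Dnah5 and Dnah8 (0.67 ± 0.19) were higher in tuft-like cells, while Dnah9 (-2.72 ± 0.12), Dnah14 (-2.73 ± 0.24), Dnah17 (-3.55 ± 0.25), Dnah2 (-3.91 ± 0.35), Dnah1 (-3.62 ± 0.46), Dnah12 (-3.71 ± 0.50), Dnah11 (-1.51 ± 0.33) and Dnah10 (-2.23 ± 0.75) were lower. The near-identical Dnah7b and Dnah7c were also lower, and reads that fit both may not be told apart, so their levels are uncertain. Not all of these calls held over the alternative settings. Dnah10 was called in 4 of 8 of them, with log2 fold changes from -4.12 to -1.19, and Dnah8 in 7 of 9. Dnah8 also overlaps Glo1 on the other strand. Cfap20 (-0.05 ± 0.09, adjusted p = 0.63, edgeR quasi-likelihood) and Cfap298 (-0.21 ± 0.16, adjusted p = 0.26) did not pass the test.

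Genes that work with the 69 but carry other names were grouped into 5 lists. Their median levels in ciliated-like, Aire-stage and tuft-like cells were 204, 10.1 and 1.52 CPM for 15 regulators of multiciliogenesis, 111, 4.15 and 2.36 CPM for 16 docking and assembly factors, and 239, 6.09 and 2.32 CPM for 14 light and intermediate chains. They were 265, 7.54 and 1.98 CPM for 18 central pair, radial spoke and nexin genes and 156, 5.19 and 1.90 CPM for 19 doublet inner proteins. Every list thus had its highest median in ciliated-like cells. Several of the genes, among them Foxj1, Mcidas, Hydin, Tppp3 and Dynlrb2, were also among the markers that named this class. Only the 69 genes were left out of the clustering, so this order was partly fixed in advance. In the comparison of tuft-like with Aire-stage cells, where 34.5% of all genes tested were called higher and 39.1% lower, the regulators had 2 called higher and 5 lower of 9 tested, the docking and assembly factors 4 and 2 of 10, and the chains 4 and 2 of 8. The central pair, radial spoke and nexin genes had 3 and 8 of 15, and the inner proteins 4 and 4 of 13. Ttc25 and Lrrc6, which dock and assemble outer arms, rose by 3.69 ± 0.11 and 3.66 ± 0.29. The RFX factor Rfx3 rose by 1.82 ± 0.09, while Foxj1 fell by 3.08 ± 0.32. Gmnc, an upstream inducer of multiciliogenesis, fell by 4.87 ± 0.41. Unlike Foxj1, Gmnc was nearly absent from ciliated-like cells, at 0.707 CPM there against 14.8 CPM in Aire-stage cells. Rfx4 and Saxo1, also of these lists, stood at 0 CPM in ciliated-like cells and at 5.11 and 11.7 CPM in Aire-stage cells. The intermediate chain Dnaic2, a partner of Dnah5 in the outer arm, fell by 5.12 ± 0.25, from 47.0 CPM in Aire-stage to 1.37 CPM in tuft-like cells. Tuft-like cells thus held high Dnah5, Dnaaf3, Ttc25 and Lrrc6 with little Dnaic2, Dnah9 or Foxj1. Ttc25 and Lrrc6, at 118 and 58.9 CPM, were the highest of the 16 docking and assembly factors there, followed by Lrrc56 at 32.1 CPM. The list's median in tuft-like cells was 2.36 CPM, and Armc4, Ccdc151 and Zmynd10 stood at 1.14, 0.532 and 0.532 CPM.

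Spermidine was compared with PBS in each class and over all assigned cells, with 2 samples on each side. With 2 against 2, an exact permutation test cannot go below p = 0.33, so single values are given mainly by their overlap. Ciliated-like cells made up 1.67% and 0.893% of assigned cells with PBS and 1.09% and 0.771% with spermidine (1.28 ± 0.549 and 0.932 ± 0.227, SD, n = 2). The groups overlapped (difference -0.350 percentage points, two-sided exact permutation p = 0.667), and without PBS 1 the difference was 0.0387. The share of program UMIs in ciliated-like cells was lower in both spermidine samples (difference -26.6 per 10000, exact permutation p = 0.33). It was -13.1 without spermidine 2, -40.1 without spermidine 1 and -13.2 with counts capped at 5 per cell. Lower in both as well was the thinned number of genes per cell (difference -5.71, exact permutation p = 0.33), a difference of -5.75 without spermidine 2. In Aire-stage cells the number of genes per cell was higher in both spermidine samples (difference 0.257, exact permutation p = 0.33). That difference was 0.147 without PBS 2, 0.104 with hashtags assigned over 4 tags, 0.101 at 2000 UMIs and 0.761 without thinning. The share of UMIs in Aire-stage cells overlapped (7.88 and 7.22 against 8.73 and 7.61 per 10000, exact permutation p = 0.667). In tuft-like cells the shares of 8.56 and 8.44 against 9.19 and 8.33 per 10000 overlapped too.

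In ciliated-like cells none of the 56 genes tested passed an adjusted p of 0.05 in edgeR's quasi-likelihood test (0% of 6313 genes tested, and 0 of the 49 tested with DESeq2), and 2 had an unadjusted p under 0.05 against 2.93% of all genes. Of the 56, 44 had a lower estimate under spermidine (78.6%, against 47.4% of all genes), with a median log2 fold change of -0.21 against 0.03. That median was -0.07 without spermidine 2 (36 of 62 lower, all genes -0.03) and -0.62 without spermidine 1. On CPM scaled by TMM, both spermidine samples lay below both PBS samples for 16 of the 56, against 14.5% of all genes, and above them for 1 of the 56, against 14.9% of all genes. On unscaled CPM, the scale of the levels printed here, they lay below for 19 of the 56, against 17.4% of all genes. Beside this, the summed level of the 20 ciliated markers outside the symbol rule was 10669 and 10853 CPM with PBS and 9495 and 8606 CPM with spermidine, and their part in the result was not tested. Dnah5 stood at 339 and 406 CPM in PBS and 218 and 208 CPM in spermidine samples without overlap (-0.74 ± 0.33, edgeR adjusted p = 1.0). Cfap410 had -1.16 ± 0.52 and Cfap43 -0.76 ± 0.39, both also without overlap. Dnah8 stood at 110.5 and 86.3 CPM in PBS and 165 and 191 CPM in spermidine samples (0.89 ± 0.38), and Drc7 (0.37 ± 0.51) and Cfap47 (0.35 ± 0.57) were next among the higher estimates. The call rests on few cells. Without spermidine 1, 5 of the genes were called lower, Rsph10b (-2.33), Rsph14 (-2.73), Cfap54 (-1.63), Cfap70 (-1.83) and Cfap53 (-2.89), when 247 of 6921 genes were called, with the 6 cells of spermidine 2 as the only treated sample and the spread taken from the PBS samples alone.

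In Aire-stage cells most estimates were higher under spermidine, with no gene called. None of the 58 genes tested was called (0% of 18085 genes, edgeR quasi-likelihood, and 0 of the 60 tested with DESeq2), and 6 had an unadjusted p under 0.05, against 7.55% of all genes. The estimate was higher under spermidine for 38 of the 58 (65.5%, against 49.3% of all genes), with a median log2 fold change of 0.25, which was 0.01 without spermidine 1. Both spermidine samples lay above both PBS samples for 17 of the 58 (19.2% of all genes did) and below them for 7 (19.1% of all genes). Beside this, the make-up of the class moved with treatment. Cluster 0 held 54.5% and 58.8% of Aire-stage cells with PBS and 42.1% and 46.3% with spermidine, cluster 3 held 27.7% and 27.3%, then 33.3% and 30.7%, and cluster 5 held 17.7% and 13.9%, then 24.6% and 23.0%. Dnah2, at 21.7, 52.5 and 18.7 CPM in clusters 0, 3 and 5, was among the genes that differed between them. Within clusters 0 and 3 the UMIs of the 69 genes per 10000, given above, overlapped between the groups, and within cluster 5 both spermidine samples were higher. The part of this shift in the estimates of single genes was not tested. Dnah2 had 0.94 ± 0.31, Cfap299, a protein of sperm flagella, 0.39 ± 0.12 (43.3 and 47.0 against 56.1 and 63.0 CPM) and Cfap57 2.03 ± 0.55 (2.07 and 0.821 against 6.57 and 5.28 CPM). In the other direction, Cfap58 had -0.72 ± 0.19, Rsph10b, which overlaps Pms2 on the same strand, -0.76 ± 0.26 and Dnah11 -1.09 ± 0.42. Each of these 6 was without overlap between the groups and had an adjusted p of 0.62 to 0.66 in edgeR's test.

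In tuft-like cells none of the 28 genes tested was called (0.126% of 12725 genes were, edgeR quasi-likelihood, and 0 of the 1 tested with DESeq2). Of the 28, 1 had an unadjusted p under 0.05, against 11.0% of all genes, and 14 had a higher and 14 a lower estimate. Both spermidine samples lay above both PBS samples for 1 of them (20.7% of all genes did) and below for 3 (22.1% of all genes) on TMM-scaled CPM, and below for 5 on unscaled CPM (25% of all genes). Cfap299, the 1 above, had 1.19 ± 0.35 (adjusted p = 0.29, edgeR), at 3.80 and 5.57 against 11.0 and 9.08 CPM. Dnah5 had 0.25 ± 0.13 with overlap, since spermidine 1 was the highest sample and spermidine 2 lay between the PBS samples. Without spermidine 2, Dnah5 was called (0.46, adjusted p = 0.0043, edgeR), among 311 genes in all. That fit has spermidine 1, the sample with the highest Dnah5, as its only treated sample, so its spread comes from the PBS samples alone. Dnah6 had 0.89 ± 0.60, Cfap410 -0.56 ± 0.29, Dnaaf3 -0.13 ± 0.10 and Drc3 -0.46 ± 0.40. The test of whether the treatment difference itself varied between tuft-like and Aire-stage cells called 0 of 59 of the genes and 0% of 18551 genes (edgeR quasi-likelihood), with 6 of the 59 at an unadjusted p under 0.05, against 6.65% of all genes.

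**Figure D5:**
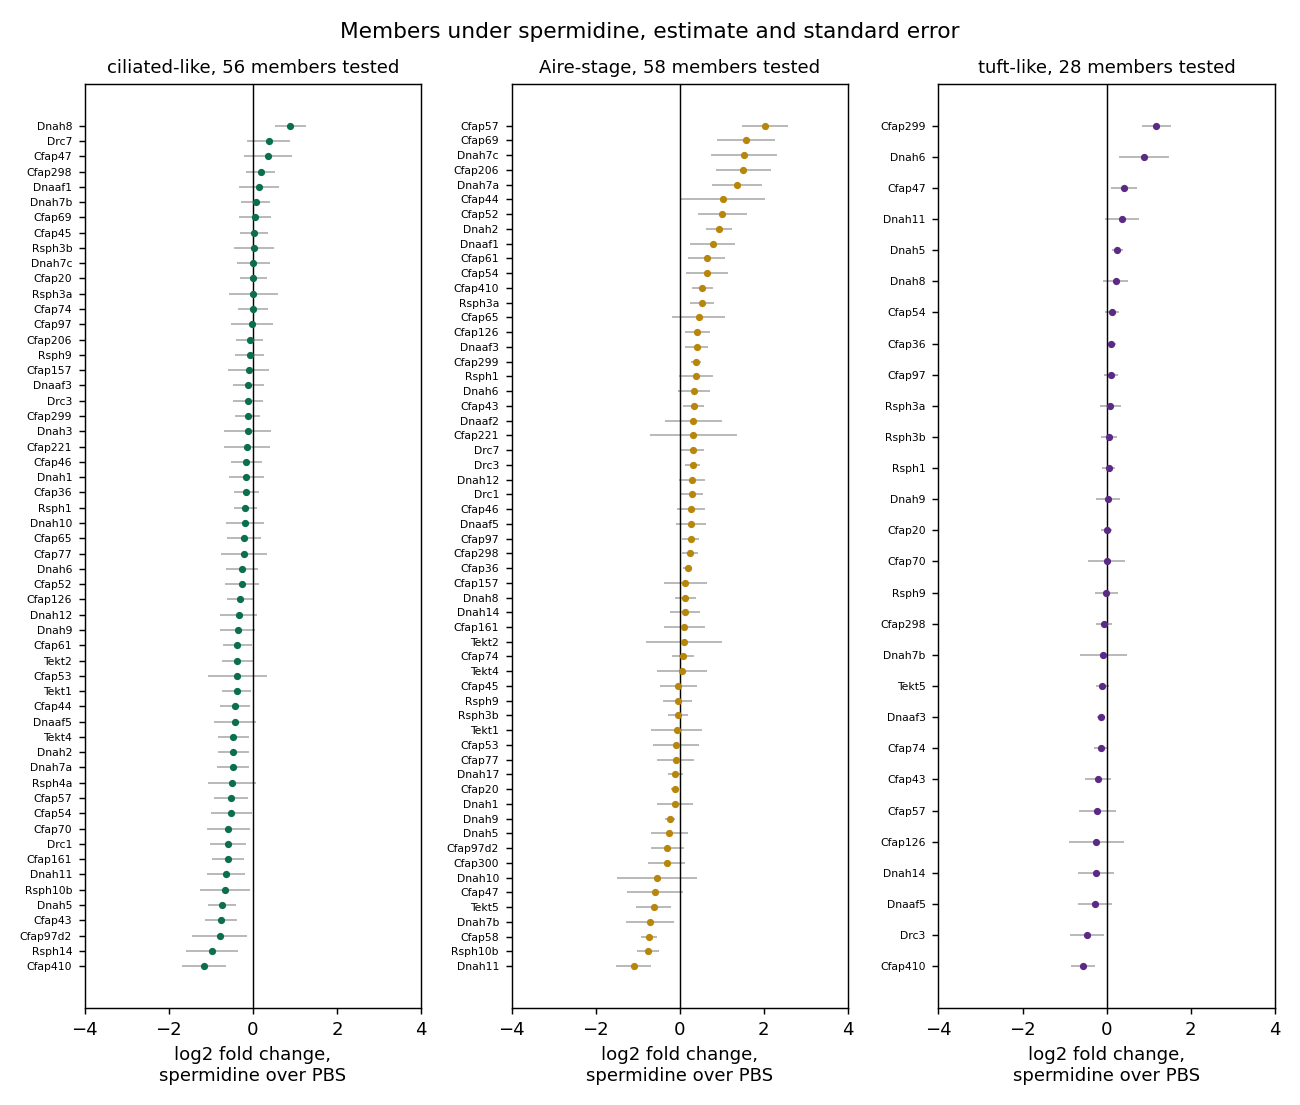
Log2 fold change of spermidine over PBS with its standard error (x axis) for each tested gene (rows, sorted), in ciliated-like (56 genes), Aire-stage (58) and tuft-like cells (28). Most estimates lie left of 0 in ciliated-like cells (44 of 56) and right of 0 in Aire-stage cells (38 of 58), with 0 genes past the adjusted threshold in each.

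Over all assigned cells, which joins class shares with levels inside classes, none of the 67 genes tested was called (0% of 21605 genes, edgeR quasi-likelihood, and 0 of the 64 tested with DESeq2), while 8 had an unadjusted p under 0.05, against 15.1% of all genes. The estimate was lower under spermidine for 49 of the 67 (73.1%, against 49.8% of all genes), with a median of -0.27, which was -0.12 without spermidine 2 and -0.13 without PBS 1. Tekt5 had -0.63 ± 0.16, Tekt4 -0.68 ± 0.22 and Dnah5 -0.51 ± 0.17, and the higher estimates with the smallest p were Dnah2 at 0.79 ± 0.19, Cfap299 at 0.27 ± 0.11 and Dnah17 at 0.42 ± 0.19. Beside this, ciliated-like cells supplied 39.5% and 32.7% of the program's UMIs with PBS and 24.2% and 21.9% with spermidine. Aire-stage cells supplied 17.7% and 27.9%, and 43.4% and 42.4%, respectively. Aire-stage cells were 21.4% and 30.4% of assigned cells with PBS and 39.6% and 39.7% with spermidine. The part of these class shares in the result was not tested. No gene of the 5 further lists was called in any of the 4 treatment fits. In ciliated-like cells the regulators had a higher estimate for 10 of 11 tested (median 0.57), while the docking and assembly factors had 3 of 15 (median -0.38). The chains had 3 of 12 (-0.21), the central pair, radial spoke and nexin genes 0 of 17 (-0.43) and the inner proteins 3 of 18 (-0.33). Over all genes 52.6% had a higher estimate, with a median of 0.03. These list counts come from the main fit alone, on 6 to 18 ciliated-like cells per sample, and were not repeated with samples left out.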

How the data were processed

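Per the labels, the library was 10x Genomics 3′ chemistry, version 3. The deposited values are UMI counts per gene and barcode that the authors made on mm10 (Cell Ranger 7.1.0, as the matrix header states; build per the submitters' processing notes). These notes also name bcl2fastq and Seurat. Of 12139 barcodes, 8534 had at least 1000 UMIs, 500 genes and under 15% mitochondrial UMIs. Hashtags were assigned with HTODemux (Seurat 5.3.0) over HT2 to HT7, which removed 1831 hashtag doublets and 532 negatives. Doublets within a sample were not called. Cells were clustered in scanpy 1.11.5 (Python 3.11.15; 2000 variable genes without the 69 described here, 30 components, 15 neighbours, Leiden resolution 1). Clusters were named from marker lists. The rule that calls unnamed clusters with Aire above 200 CPM Aire-stage was made after seeing the data. UMI counts were summed per class and hashed sample and tested in edgeR 4.0.16 (R 4.3.3; TMM, filterByExpr, quasi-likelihood, Benjamini-Hochberg over all genes, threshold 0.05). DESeq2 1.42.0 served as an alternative. For genes per cell, each cell was thinned to 5000 UMIs. Single values were compared with two-sided exact permutation tests. Intervals cover counting error only. The scripts were tested on simulated data. Named genes were the 8 highest per class, the 5 largest and 5 smallest log2 fold changes of tuft-like over Aire-stage cells, the 3 smallest p on each side of each treatment fit, and a fixed set of ciliopathy genes. The genes and lists were chosen with earlier results of these data known.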

Additional observations from a re-analysis of the deposited data

Results flagged for a closer look

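Barcodes outside the labelled samples carried hashtags. HT6 marked 1227 cells and HT7 marked 1205, and the labels name no sample for either, so these cells were not used in any comparison.

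For some genes both spermidine samples lay on 1 side of both PBS samples in one class and on the other side in another class. Between ciliated-like and Aire-stage cells this held for 7 genes, which were lower in ciliated-like and higher in Aire-stage cells under spermidine, on unscaled CPM. They were 7 of the 52 tested in both classes, against 3.42% of 6194 genes with that pattern. The difference of their log2 fold changes (ciliated-like minus Aire-stage) was -0.73 for Cfap126, -1.70 for Cfap410, -1.10 for Cfap43, -2.55 for Cfap57, -1.41 for Dnah2, -1.82 for Dnah7a and -0.88 for Drc1. These differences were not tested. Dnah7a shares sequence with near-identical copies, and Cfap43 overlaps Itprip on the same strand. Between Aire-stage and tuft-like cells this held for 4 genes, higher in Aire-stage and lower in tuft-like cells, of 27 tested in both (5.05% of 12219 genes), with a difference (Aire-stage minus tuft-like) of 1.10 for Cfap410, 0.54 for Cfap43, 0.53 for Dnaaf3 and 0.77 for Drc3. None of these passed edgeR's quasi-likelihood test of the difference, with adjusted p from 0.71 to 0.88 after Benjamini-Hochberg adjustment.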

How the results depend on the processing

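The number of genes called between tuft-like and Aire-stage cells was 39 of 48 tested, where 73.7% of all genes were called. It ranged from 35 to 47 over 9 alternatives. At Leiden resolution 0.5 it was 35 of 42, with 11043 of 15128 genes called in all. Without the low-count filter it was 47 of 69, with 15804 of 36322 genes called in all. In the treatment fits, 0 genes were called, except for 1 in Aire-stage cells without the low-count filter (Dnah2), and, over all assigned cells, 6 without that filter and 2 with counts capped at 5 per cell. Leaving out 1 sample at a time gave 0 to 1 called in tuft-like cells, 0 to 5 in ciliated-like cells and 0 to 1 over all cells (Rsph1, without PBS replicate 2). Differences of spermidine minus PBS changed sign for the ciliated-like share of cells (-0.738 to 0.0387 when leaving out samples) and the tuft-like share of program UMIs (-0.172 to 0.691). The tuft-like number of genes per cell, 0.0176, ranged from -0.0475 to 0.0827 when leaving out samples. It was -0.0468 with 4 hashtags, -0.0269 with a mitochondrial limit of 25%, -0.0192 when thinned to 2000 UMIs and -0.204 without thinning. Counts over all genes moved too. In Aire-stage cells 498 were called without the filter and 74 by DESeq2, in tuft-like cells 372 and 35, in ciliated-like cells 126 and 9, and over all cells 2442 and 492 (1092 with the cap).

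Same-numbered samples did not deviate together (correlation -0.01 in Aire-stage, 0.05 in tuft-like, -0.19 in ciliated-like and -0.02 over all cells), so the numbers were not taken to pair samples. With the replicate block, 0 of the genes were called in each treatment fit, and all genes called were 0, 77, 21 and 0. Crossing the numbers in ciliated-like cells called 10 genes, 0 of them among the 69.

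The ciliated-like results rest on 43 cells, 6 to 18 per sample. The low-count filter left 28 of the 69 genes to test in tuft-like, 58 in Aire-stage and 56 in ciliated-like cells.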

Other observations

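Outside the 3 classes compared, neuroendocrine-like cells had the largest share of program UMIs (10.5 per 10000) and the most of the 69 genes per cell. In all, 61 of the genes had a UMI in these cells, fewer than the 66 in enterocyte or hepatocyte-like and the 62 in transit-amplifying cells, while 26 stood above 10 CPM and 3 above 100 CPM. After thinning to 5000 UMIs a neuroendocrine-like cell had 4.26 of the genes on average (194 cells). Thymocyte-like cells had UMIs of 36 of the genes, led by Dnah8 at 61.7 CPM. Dnah8 overlaps Glo1, a broadly expressed gene, on the other strand. In tuft-like cells Dnah8 was uneven, at 7.94, 9.86 and 56.2 CPM in clusters 1, 2 and 11.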
